A study of Mus musculus with 12 samples.

Results

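The regions described here carried an H3K4me3 peak in C2C12 myoblasts and none in C2C12 myotubes. The deposited H3K4me3 peak list of myoblasts held 12608 intervals, of which 12243 lay on chromosomes 1 to 19. Of these, 1102 (9.0%) overlapped no interval of the myotube H3K4me3 list and are called the myoblast-only regions. The other 11141 overlapped a myotube interval by at least 1 bp and are called shared. The regions were therefore chosen by measured H3K4me3, and every H3K4me3 value given for them is a description of that choice.

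C2C12 is a mouse myoblast line of strain C3H that fuses into multinucleated myotubes when serum is withdrawn. Histone marks were profiled by ChIP-seq at passages 15 to 18. Myoblasts were taken near confluence in medium with 10% serum. Myotubes were taken about 5 days after the switch to low serum and were freed from unfused cells by a light trypsin treatment, and how many unfused cells were left was not given in the sources used here. H3K4me1, H3K4me2, H3K4me3, H3K27ac, H3K27me3 and H3K36me3 were each sequenced in 1 library per cell type, after 15 cycles of PCR and without an input library among the files used here. No p-value is given for this reason: a difference compares a pair of libraries and not the conditions, and 95% intervals cover counting error only. In a bulk culture, fewer cells with a mark and less of the mark per cell cannot be told apart.

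The myoblast libraries held 1858771 to 7033100 reads and the myotube libraries 3298694 to 6271899. H3K4me3 had 2774474 reads in myoblasts and 3298694 in myotubes, and H3K27ac had the largest imbalance, 1858771 against 4725910. Over the promoters of all 10 myotube marker genes (Myog, Ckm, Acta1 and others) H3K4me3 was higher in myotubes, 122 reads against 1225 in all, with a median ratio of 23.1 and no gene of the list at 0 in either library. Over all 8 markers of proliferating myoblasts (Ccna2, Cdk1, Mki67 and others) it was lower in myotubes, 700 reads against 305, with a median ratio of 0.369. Of 5 regulators of other mesenchymal fates, 1 (Cebpa) was above a ratio of 1. The markers followed the labels of both cultures, and the proliferation genes kept 16 to 90 myotube reads each.

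Trimethylation of histone H3 lysine 4 (H3K4me3) is found at the start sites of active and poised genes, H3K4me1 spreads over enhancers, H3K4me2 covers both, and H3K27ac marks promoters and enhancers in use. H3K27me3 is laid down by Polycomb repressive complex 2 and covers silenced developmental genes, often together with H3K4me3 in so-called bivalent promoters of cells that are not fully differentiated. H3K36me3 accumulates over the bodies of transcribed genes. On the way from myoblast to myotube the cell leaves the cell cycle, so loss of a promoter mark can leave a bare promoter or one taken over by Polycomb.

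The myoblast-only regions were of 2 main kinds by position. Promoter-proximal regions, whose interval lay within 1 kb of a protein-coding transcription start site (TSS), numbered 445 (40.4%), distal regions, more than 5 kb from any annotated TSS, numbered 441 (40%), and 216 (19.6%) lay in between. Examples of each kind are printed below from the mm9 genome. The first 4 are the distal regions with the most myoblast H3K4me3 reads that hold the AP-1 motif in their central 300 bp (windows that touch an exon left out); they are shown because AP-1, bound by FOS and JUN proteins, was the motif whose share in distal regions stood farthest above that of all intervals. Capitals mark the 7 letters of the AP-1 motif.
Upstream of Lekr1, the nearest gene (chr3:65447636-65447756, plus strand): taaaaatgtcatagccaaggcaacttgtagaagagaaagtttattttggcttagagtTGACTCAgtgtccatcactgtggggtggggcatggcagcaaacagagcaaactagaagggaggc
Inside Tns1 (chr1:74062548-74062668, plus strand): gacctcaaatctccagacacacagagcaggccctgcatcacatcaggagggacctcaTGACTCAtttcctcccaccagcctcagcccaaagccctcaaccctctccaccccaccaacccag
Intergenic, nearest gene 4921513I03Rik (chr10:120069692-120069812, plus strand): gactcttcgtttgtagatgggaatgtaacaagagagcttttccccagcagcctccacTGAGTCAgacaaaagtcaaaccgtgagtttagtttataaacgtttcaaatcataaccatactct
Inside Cubn (chr2:13403441-13403561, plus strand): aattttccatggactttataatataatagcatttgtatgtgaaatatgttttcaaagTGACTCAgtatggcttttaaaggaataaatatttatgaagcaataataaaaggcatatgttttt
These 4 regions had 36, 33, 33 and 29 H3K4me3 reads in myoblasts and 4, 3, 13 and 4 in myotubes. The next 5 sequences are the 200 bases upstream of the TSS of promoters to which the results return: Foxs1, Syt13 and Fam83d for the highest myoblast H3K4me3, Atoh8 for its H3K27me3, and Mybl2 for the cell cycle list. Capitals mark CG dinucleotides, of which they hold 6, 10, 7, 12 and 23.
Foxs1 (chr2:152758945-152759144, minus strand): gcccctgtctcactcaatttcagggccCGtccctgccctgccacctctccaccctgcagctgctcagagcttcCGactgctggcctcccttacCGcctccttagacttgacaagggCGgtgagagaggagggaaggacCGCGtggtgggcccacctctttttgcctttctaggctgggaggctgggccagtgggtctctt
Syt13 (chr2:92755055-92755254, plus strand): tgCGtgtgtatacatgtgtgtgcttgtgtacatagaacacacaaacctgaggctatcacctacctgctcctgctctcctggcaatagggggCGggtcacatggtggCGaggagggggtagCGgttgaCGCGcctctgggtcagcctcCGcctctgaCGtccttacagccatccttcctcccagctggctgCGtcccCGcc
Fam83d (chr2:158593629-158593828, plus strand): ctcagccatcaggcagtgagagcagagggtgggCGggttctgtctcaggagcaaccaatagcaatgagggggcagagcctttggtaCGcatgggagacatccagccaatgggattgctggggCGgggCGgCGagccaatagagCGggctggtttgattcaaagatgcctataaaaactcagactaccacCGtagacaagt
Atoh8 (chr6:72185572-72185771, minus strand): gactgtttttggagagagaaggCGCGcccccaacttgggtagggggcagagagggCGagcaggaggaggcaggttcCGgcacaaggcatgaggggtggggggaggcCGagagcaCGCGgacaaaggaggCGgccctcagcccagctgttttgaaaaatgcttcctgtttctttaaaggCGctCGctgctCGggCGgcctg
Mybl2 (chr2:162880223-162880422, plus strand): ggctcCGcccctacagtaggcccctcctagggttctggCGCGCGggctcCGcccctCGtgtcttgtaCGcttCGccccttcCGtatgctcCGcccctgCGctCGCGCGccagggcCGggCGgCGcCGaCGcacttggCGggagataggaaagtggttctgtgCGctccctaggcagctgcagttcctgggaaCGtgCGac
The 445 promoter-proximal myoblast-only regions held a median of 12 CG dinucleotides in such a stretch, against 16.0 for shared promoter-proximal intervals and 12 for those of low score, so the Foxs1 and Fam83d promoters are poor in CG and Mybl2 is rich.

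Myoblast-only regions were narrow and low in the peak ranking. Their median width was 1210 bp (95% interval 1175 to 1255, range 493 to 5214), against 2271 bp for shared intervals. The MACS score, which ranks peaks within a list and starts at 50 here, had a median of 73.1 against 573 for shared intervals. Of the 1102 regions, 779 scored under 100, 265 between 100 and 300 and 58 at 300 or more. Among all 1897 myoblast intervals scored under 100, 41.1% were myoblast-only, against 11.3% of the 2344 between 100 and 300 and 0.725% of the 8002 at 300 or more. The myoblast-only regions are thus mostly weak peaks, and the 1118 shared intervals with a score under 100 are used as the closest set for comparison. These low-scoring shared intervals had a median width of 1182 bp and a median score of 71.4.

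The position of the regions followed their score. Of the 58 regions at 300 or more, 47 (81.0%) were promoter-proximal, against 161 (60.8%) of those between 100 and 300 and 237 (30.4%) of those under 100. For comparison, 9355 shared intervals (84.0%) and 386 low-scoring shared intervals (34.5%) were promoter-proximal. The median distance from the region's midpoint to a protein-coding TSS was 4686 bp (quartiles 408 and 25506), against 384 bp for shared and 6970 bp for low-scoring shared intervals. The farthest region lay 701547 bp from a TSS, and 80 regions lay more than 100 kb away. Of the midpoints, 722 (65.5%) fell inside a protein-coding gene. By position, 29.1% of all 1513 distal myoblast H3K4me3 intervals were myoblast-only, against 4.54% of the 9800 promoter-proximal intervals.

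In most cases the nearest myotube interval was far away. The median gap was 23191 bp, 730 regions had a gap over 10 kb, and 82 had a myotube interval within 1 kb. The regions closest to failing the rule were near Fam65b, where the myotube interval touched the region without overlap (12 H3K4me3 reads in myoblasts, 6 in myotubes), near Shb with a gap of 2 bp (9 and 4 reads) and at Zfp948 with a gap of 7 bp (9 and 0 reads). Just on the other side of the rule were a shared interval in Met, overlapping by 25 bp (7 and 6 reads), and those at Col19a1 and Gnao1, overlapping by 40 and 41 bp.

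The H3K4me3 reads that underlie the peak calls were low in most regions, and a peak missing from the myotube list did not mean that no H3K4me3 was there. A region held 3 to 166 reads in myoblasts (median 13) and 0 to 64 in myotubes (median 7). In fold over the library mean per base, the medians were 9.94 and 4.42. The ratio of myotubes to myoblasts, scaled by total reads with 1 read added to each count, had a median of 0.421 (0.421 to 0.445), against 0.910 in shared and 1.2 in low-scoring shared intervals. It was below 1 in 95.7% of the regions, at or below 0.5 in 669 and at or below 0.25 in 216. In myotubes 742 regions (67.3%) were still at 3-fold or more over the library mean, and 32 had no read at all, which allows up to 3. The plot of H3K4me3 reads in both libraries shows the regions as a band below the shared intervals that mixes with them at low counts.

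**Figure D1:**
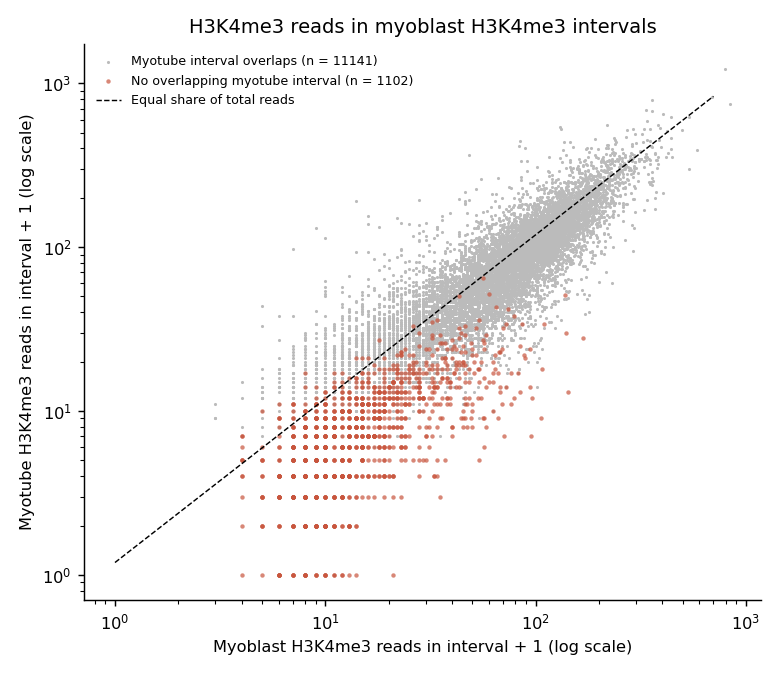
H3K4me3 reads plus 1 in each myoblast H3K4me3 interval, myoblasts on the x axis and myotubes on the y axis, both on log scales. Each point is an interval: the 1102 without an overlapping myotube interval (red) and the 11141 with one (grey), and the dashed line marks an equal share of the total reads. The red points lie mostly below the line at up to 166 myoblast reads, and 47 of them have a ratio above 1.

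A few regions kept substantial H3K4me3 in myotubes in spite of the missing peak. The promoter of Man1a, a Golgi mannosidase, had 55 reads in myoblasts and 64 in myotubes, that of Rgs19, a regulator of G protein signalling, had 59 and 51, and the third region with at least 50 myotube reads was Fam83d with 137 and 50. These were named because they are the 3 regions with 50 or more myotube reads and were picked after their values were seen. In all, 100 regions had at least 18 myotube reads, the median of low-scoring shared intervals. At the other end, the 58 regions scored 300 or more went from a median of 65.0 reads to 13 and from 21.3-fold to 3.93-fold, with a median ratio of 0.177.

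The strongest promoter-proximal region lay at Foxs1, which encodes a forkhead transcription factor (chr2:152755484-152759690, over the TSS). It held 166 H3K4me3 reads in myoblasts and 27 in myotubes, a ratio of 0.137 (0.0875 to 0.206). Syt13, of the synaptotagmin family (chr2:92754278-92758285), went from 142 reads to 12, and the start site shared by Col4a1 and Col4a2, chains of basement membrane collagen (chr8:11311140-11315244), from 139 to 29. Fam83d, a spindle protein, had 137 and 50 reads, and Dlx2, a homeobox factor, 109 and 33. The next were Sema7a, a membrane-anchored semaphorin (106 and 17), Aqp1, a water channel (105 and 8), and Chst1, a carbohydrate sulfotransferase (94 and 6). Gsg2, the mitotic histone kinase haspin, had 93 and 23 reads, and Plaur, the urokinase receptor, 93 and 13. Each of these 10 promoters thus kept some reads in myotubes, between 6 at Chst1 and 50 at Fam83d.

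The strongest distal regions lay far from promoters. The highest lay upstream of Fer1l6, at -27877 bp from its TSS (chr15:58312033-58315418), with 95 H3K4me3 reads in myoblasts and 11 in myotubes, and the next upstream of Tnc, the gene of the matrix protein tenascin C, at -25546 bp (chr4:63705855-63708757), with 88 and 20. A region inside Agap1 (chr1:91476394-91479197), a GTPase-activating protein, had 81 and 16 reads. A region with 65 and 16 reads lay at 105121 bp from the TSS of Snx5, the nearest gene, and another with 63 and 21 reads at -84103 bp from that of Ccdc28a. All distal regions together were narrower, with a median width of 1072 bp against 1494 bp for the promoter-proximal ones.

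H3K4me2, which the selection did not use, was lower in myotubes in most myoblast-only regions. The median region had 58.0 reads in myoblasts and 24.0 in myotubes, or 27.9-fold and 10.5-fold over the library mean, and the median ratio was 0.389 (0.376 to 0.406). A region was called lower where the ratio was 0.5 or less, and higher where it was 2 or more, given 10 or more reads over the pair of libraries. Of 1083 regions with enough reads, 740 (68.3%) were called lower and 16 (1.48%) higher, while over all myoblast H3K4me3 intervals 33.0% were called lower and 1.49% higher. Among low-scoring shared intervals 33.6% were called lower, with a median ratio of 0.647. The share called higher was thus at the background and the share called lower was well above it.

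H3K27ac followed H3K4me2. The median region had 11.0 reads in the shallow myoblast library and 9 in the deeper myotube library, or 11.6-fold and 3.77-fold, with a median ratio of 0.393 (0.369 to 0.393). Of 825 regions with enough reads, 537 (65.1%) were called lower and 25 (3.03%) higher, against 40.8% and 4.36% of all myoblast H3K4me3 intervals. The low-scoring shared intervals were lower in 21.7% and had a median ratio of 0.870. Myoblast-only regions that also scored under 100 were lower in 56.7%, with a median ratio of 0.433. Intervals scored under 100 that stayed in the myotube list thus mostly kept their acetylation.

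H3K4me1 was lower less often. The median counts were 28.0 and 15.0 reads, the folds 8.33 and 4.61, and the median ratio 0.558 (0.534 to 0.574). Of 1037 regions, 437 (42.1%) were called lower and 23 (2.22%) higher, against 14.5% and 7.83% of all intervals. In low-scoring shared intervals 28.0% were lower and the median ratio was 0.672, the smallest distance between the regions and that set among these 3 marks. The median ratio of shared intervals was 0.934.

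The median shared interval was also lower in H3K4me2 and H3K27ac. In shared intervals the median log2 ratio was -0.14 for H3K4me3, -0.64 for H3K4me2, -0.10 for H3K4me1, -0.75 for H3K27ac, -0.10 for H3K27me3 and -0.29 for H3K36me3. With the median shared interval of each mark set to a ratio of 1, 37.2% of myoblast-only regions were lower and 4.62% higher in H3K4me2, against 8.94% and 7.60% of all intervals. In H3K27ac 41.8% were lower and 8% higher, against 15.1% and 14.3%, and in H3K4me1 37.1% were lower and 2.31% higher, against 11.9% and 9.63%. The low-scoring shared intervals were lower in 10.6% (H3K4me2), 6.54% (H3K27ac) and 22.9% (H3K4me1), so the distance to that set was again smallest in H3K4me1. Relative to shared intervals the 3 marks therefore stood closer together, between 37.1% and 41.8% lower. Of 805 regions with enough reads of all 3 marks, scaled by total reads, 230 (28.6%) were lower in all of them and 139 (17.3%) in none, against 5.29% and 47.5% of shared and 6.91% and 50.9% of low-scoring shared intervals.

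H3K27me3 and H3K36me3 gave few reads in intervals this narrow. The median region had 3.00 and 2.00 H3K27me3 reads, or 0.841-fold and 0.796-fold, which is at the library mean, and the median ratio was 0.933 (0.933 to 1.05). Only 255 regions had enough reads for a call, of which 46 (18.0%) were lower and 28 (11.0%) higher, against 17.1% and 6.02% of all intervals. For H3K36me3 the medians were 4 and 2.00 reads, the ratio was 0.932 (0.815 to 0.978), and of 372 regions 84 (22.6%) were lower and 30 (8.06%) higher, against 18.9% and 4.68%. At these counts a difference of less than several-fold in a single region was not detectable. The box plot of ratios by mark shows the regions' medians below those of both shared sets in H3K4me2, H3K4me1 and H3K27ac. The boxes overlap in each of these marks. In H3K27me3 and H3K36me3 the medians lie close together.

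**Figure D2:**
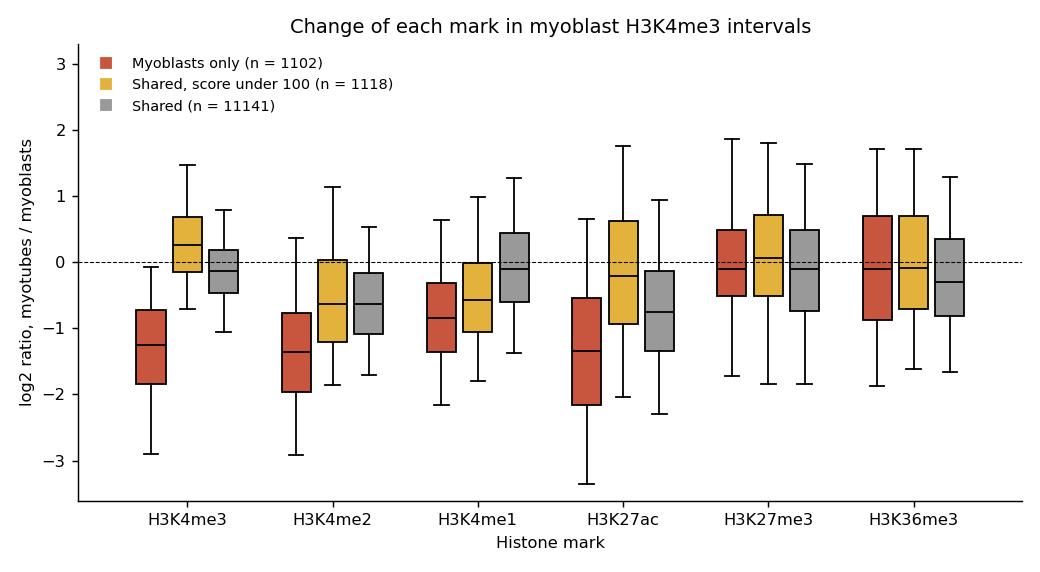
Log2 ratio of myotubes to myoblasts (y axis) of each of 6 histone marks (x axis), in the 1102 myoblast-only regions, the 1118 shared intervals with a score under 100 and all 11141 shared intervals. Lines are medians, boxes quartiles and whiskers the 5th and 95th percentiles over intervals, and 0 means an equal share of reads. H3K4me3 was used to choose the regions, and in the other marks their median ratios were 0.389 (H3K4me2), 0.558 (H3K4me1), 0.393 (H3K27ac), 0.933 (H3K27me3) and 0.932 (H3K36me3).

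Promoter-proximal and distal regions differed in make-up. In myoblasts, promoter-proximal regions had a median of 37.5-fold H3K4me2, 6.62-fold H3K4me1 and 8.73-fold H3K27ac. Distal regions had less H3K4me2 (20.1-fold) and more H3K4me1 (10.3-fold) and H3K27ac (16.6-fold). In myotubes the promoter-proximal medians were 11.9-fold, 3.27-fold and 2.69-fold, with 82.4%, 48.1% and 74.5% of regions called lower. The distal medians were 9.17-fold, 6.01-fold and 5.54-fold, with 57.7%, 41.0% and 62.3% called lower. In shared intervals the same marks were called lower in 29.5%, 10.5% and 40.9% at promoter-proximal and 28.1%, 19.5% and 26.4% at distal positions, so H3K27ac differed by position in shared intervals too. In myotubes distal regions had somewhat less H3K4me2 and more H3K4me1 and H3K27ac in myotubes than the promoters did.

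The average profiles around region centres gave the shapes behind these numbers. Within 500 bp of the centre, mean H3K4me3 at promoter-proximal regions was 18.1-fold in myoblasts and 6.11-fold in myotubes, H3K4me2 48.0-fold and 14.4-fold, and H3K27ac 15.8-fold and 5.23-fold. At distal regions H3K4me3 was 10.8-fold and 4.18-fold, H3K4me1 13.4-fold and 7.13-fold, and H3K27ac 27.5-fold and 12.6-fold. Each of these marks kept a peak at the centre in myotubes, lower but in the same place. H3K4me1 had its maximum at the centre of the promoter-proximal regions in both cell types (7.97-fold and 4.06-fold within 500 bp). Shared promoters had a dip there (3.69-fold in both) with maxima 750 to 950 bp to the sides. Low-scoring shared promoters were not profiled. Over all positions, low-scoring shared intervals had a myoblast median of 9.45-fold H3K4me1, against 8.33-fold in the regions. In myoblasts, then, the promoter-proximal regions had as much H3K4me2 in the mean as shared promoters (48.0-fold and 48.7-fold) with less H3K4me3 (18.1-fold and 47.5-fold). Low-scoring shared intervals at all positions were like the regions as a whole in this. Their myoblast medians were 29.0-fold H3K4me2 and 9.64-fold H3K4me3, against 27.9-fold and 9.94-fold.

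**Figure D3:**
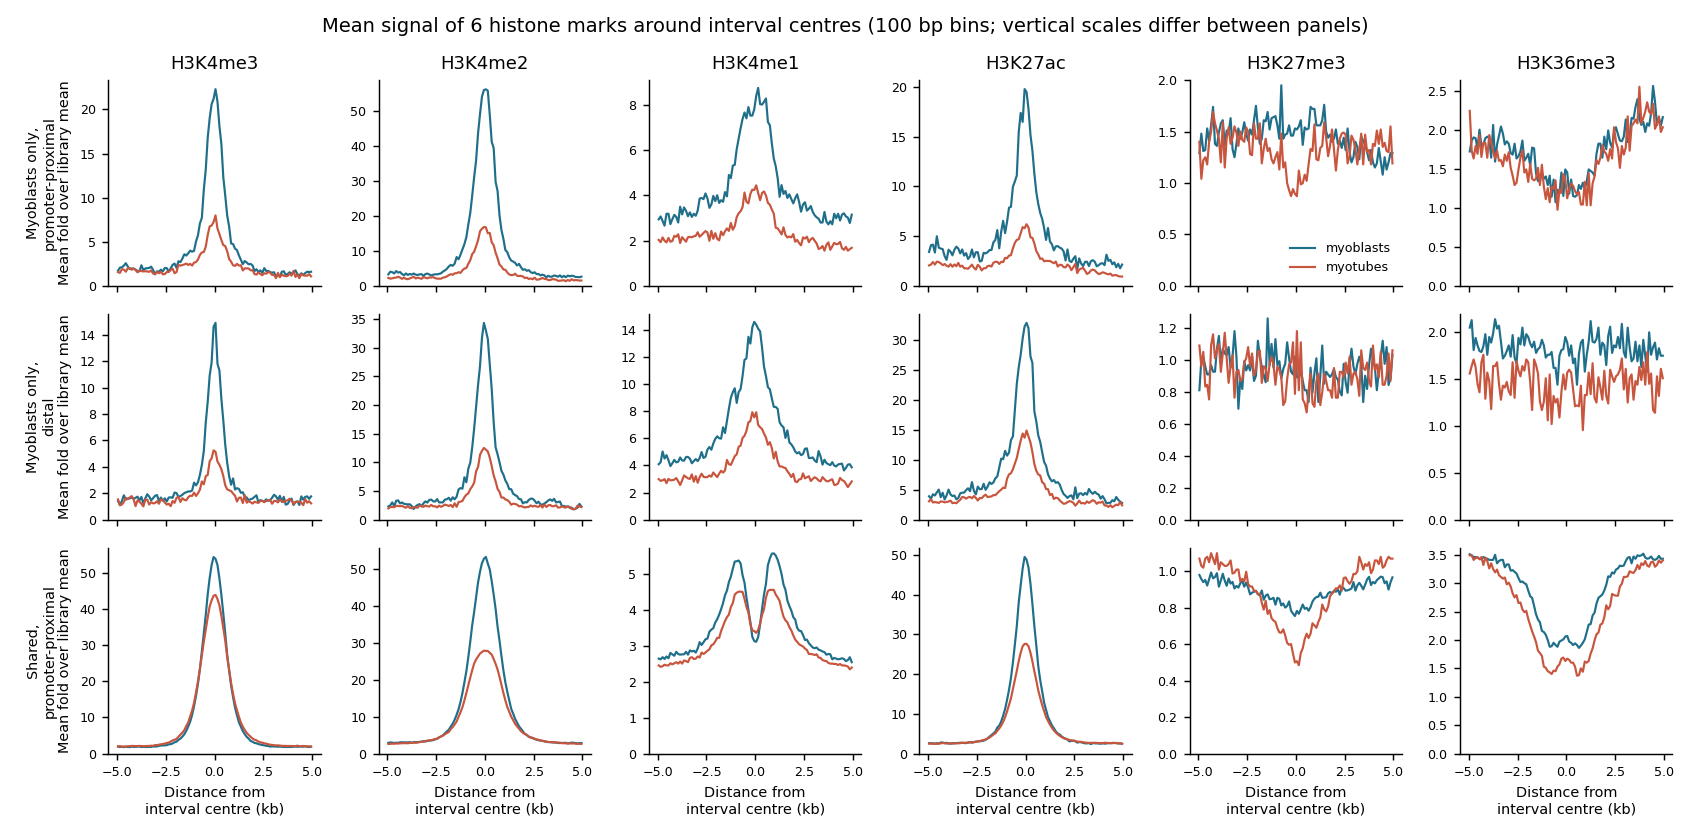
Mean fold over the library mean (y axis, scales differ between panels) in 100 bp bins against distance from the interval centre in kb (x axis), for 6 marks in myoblasts and myotubes. Rows show 445 promoter-proximal and 441 distal myoblast-only regions and 9355 shared promoter-proximal intervals. The 4 marks at left are lower but still peaked in myotubes at myoblast-only regions, and H3K27me3 at promoter-proximal regions is 1.51-fold within 500 bp in myoblasts and 0.969-fold in myotubes.

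The deposited peak lists of the other marks were compared by overlap. A myoblast H3K4me2 interval overlapped 91.9% of the regions (1013) and a myotube H3K4me2 interval 73.7% (812), against 98.6% and 96.9% of all myoblast H3K4me3 intervals and 94.8% and 96.7% of low-scoring shared ones. For H3K4me1 the shares were 73.4% (809) in myoblasts and 32.9% (363) in myotubes, against 60.1% and 32.1% of all intervals and 74.5% and 45.8% of low-scoring shared ones. In myotubes the share of regions with an H3K4me1 interval was thus at that of all intervals, while 42.2% of distal but 15.5% of promoter-proximal regions had one. A myotube H3K27ac interval overlapped 38.3% (422), again more of the distal regions (50.1%) than of the promoter-proximal ones (19.8%), against 79.3% of all and 68.1% of low-scoring shared intervals. A myotube interval of at least 1 of these 3 marks was present at 900 regions (81.7%) and absent from 202 (18.3%), while 97.8% of all and 97.3% of low-scoring shared intervals had one. H3K36me3 intervals overlapped 6.72% in myoblasts and 5.44% in myotubes, below the 11.1% and 8.12% of all intervals and near the 6.08% and 4.56% of low-scoring shared ones.

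The myoblast lists of H3K27me3 and H3K27ac were read with care. The 34662 intervals deposited with the H3K27me3 sample held 36.4-fold H3K27ac reads and 0.804-fold H3K27me3 reads, and the 17994 deposited with the H3K27ac sample held 6.76-fold H3K27me3 and 0.588-fold H3K27ac. The lists thus go against their labels and match the reads when exchanged. As deposited, 62.3% of the regions overlapped the H3K27me3 list and 3.27% the H3K27ac list; exchanged, 3.27% (36) overlapped an H3K27me3 interval and 62.3% (686) an H3K27ac interval. On the exchanged lists the shares were 0.751% and 88.0% of all intervals and 2.15% and 65.5% of low-scoring shared ones. Reads were used for both marks in everything that follows.

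Whether H3K27me3 took the place of H3K4me3 was asked in 5 kb centred on each region, since the mark is broad. The median region had 12 H3K27me3 reads in myoblasts and 8 in myotubes, 0.875-fold and 0.816-fold, and the median ratio was 0.962 (0.933 to 1.0), against 0.933 in shared intervals. With enough reads in 1045 regions, 84 (8.04%) were lower and 68 (6.51%) higher, against 10.8% and 5.46% of all intervals. The regions as a whole were thus near the background. Among those scored 300 or more, 9 of 54 (16.7%) were higher and 4 (7.41%) lower. Shared intervals of that score were higher in 5.30% and lower in 11.2%. A gain was defined as a ratio of 2 or more together with at least 3-fold H3K27me3 in myotubes. It was met by 2 of the 1102 regions (0.181%), against 7 of all 12243 intervals (0.0572%). In the myotube H3K27me3 peak list, 3 regions (0.272%) had an interval, against 0.268% of low-scoring shared intervals. None of the 445 promoter-proximal regions had one, although 26 of them were at 3-fold or more in myotubes by reads. The list therefore cannot show how many regions held the mark. In the average profile, H3K27me3 within 500 bp of promoter-proximal regions was 1.51-fold in myoblasts and 0.969-fold in myotubes, and at 4 to 5 kb from the centre 1.33-fold and 1.38-fold. At distal regions it was 0.937-fold and 0.931-fold. Higher H3K27me3 in place of H3K4me3 was therefore measured at few regions, and the median region had no more than the library mean in either cell type.

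The clearest gain lay over the promoter of Atoh8, a basic helix-loop-helix factor (chr6:72183987-72185953). In 5 kb it had 17 H3K27me3 reads in myoblasts and 54 in myotubes, 1.24-fold and 5.51-fold, a ratio of 4.45 (2.54 to 8.18). Its H3K4me3 went from 59 reads to 14. A distal region whose nearest gene is also Atoh8 (chr6:72165529-72166546) had 9 and 26 H3K27me3 reads, a ratio of 4.04 (1.84 to 9.81), so the higher H3K27me3 was seen at both. The second region that met the definition lay 29892 bp from 1810012P15Rik (chr11:78669723-78670272), with 20 and 30 reads, a ratio of 2.10 (1.15 to 3.90), just at both limits.

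With the limit set at 2-fold in myotubes instead of 3-fold, 17 regions (1.54%) passed, against 41 of all intervals (0.335%), 24 shared intervals (0.215%) and 6 low-scoring shared intervals (0.537%). They were 3 of the 58 regions scored 300 or more (5.17%), 6 of those between 100 and 300 (2.26%) and 8 of those under 100 (1.03%), and 8 were distal and 4 promoter-proximal. Syt13 was among them, with 10 and 27 H3K27me3 reads in 5 kb, a ratio of 3.78 (1.77 to 8.75), as were Dlx2 with 12 and 24 reads (2.80, 1.35 to 6.14) and Sema7a with 9 and 22 (3.42, 1.51 to 8.44). The distal region upstream of Tnc had 7 and 21 reads (4.2, 1.72 to 11.7), and a region near AB041803 had 4 and 22 (7.70, 2.61 to 30.7). These levels were 2.14-fold to 2.75-fold over the library mean. In the same library and window, regions already at 3-fold or more in myoblasts, described next, had a median of 2.75-fold. The myoblast intervals that hold H3K27me3 had a mean of 6.76-fold, but in another library and another window. Syt13, Dlx2 and Sema7a are among the 10 promoters with the most myoblast H3K4me3, and the ratios of these 5 regions rest on 21 to 27 myotube reads each.

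More regions had H3K27me3 from the start. At 3-fold or more in myoblasts in 5 kb there were 71 regions (6.44%), against 1.08% of shared (120) and 5.01% of low-scoring shared intervals (56). Of these, 54 were promoter-proximal, their median CpG observed over expected was 0.652, and none of the 58 regions scored 300 or more was among them. Their median H3K4me3 was 13 reads in myoblasts and 7 in myotubes. H3K27me3 was lower in myotubes as well, from a median of 4.01-fold to 2.75-fold, with a median ratio of 0.671 (0.612 to 0.716) and a ratio under 1 in 68 of 71. They were picked by a high myoblast value, which favours a ratio under 1. Shared and low-scoring shared intervals picked in the same way had median H3K27me3 ratios of 0.594 and 0.619. Their median H3K4me3 ratios were 1.02 and 1.22, so the lower H3K27me3 was not particular to the myoblast-only regions. Counted the other way, 34 regions were at 3-fold or more in myotubes, and 27 of those were so in myoblasts too.

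The highest of them lay at Gata6, a zinc finger factor of heart and endoderm, with 137 H3K27me3 reads in 5 kb in myoblasts and 23 in myotubes (9.99-fold and 2.35-fold) and 18 and 13 H3K4me3 reads in the interval. Prkcz, an atypical protein kinase C, had 112 and 48 H3K27me3 reads and 12 and 1 H3K4me3 reads. A region between genes on chromosome 5, with 1700013N18Rik the nearest, had 106 and 51 H3K27me3 reads. Ptpru, a receptor tyrosine phosphatase, had 103 and 30, and a region upstream of Hoxb4, of the HOX cluster, at -5238 bp, 102 and 52 (7.44-fold and 5.31-fold). The plot of H3K27me3 in both cell types shows most of these points under the line of equal fold.

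**Figure D4:**
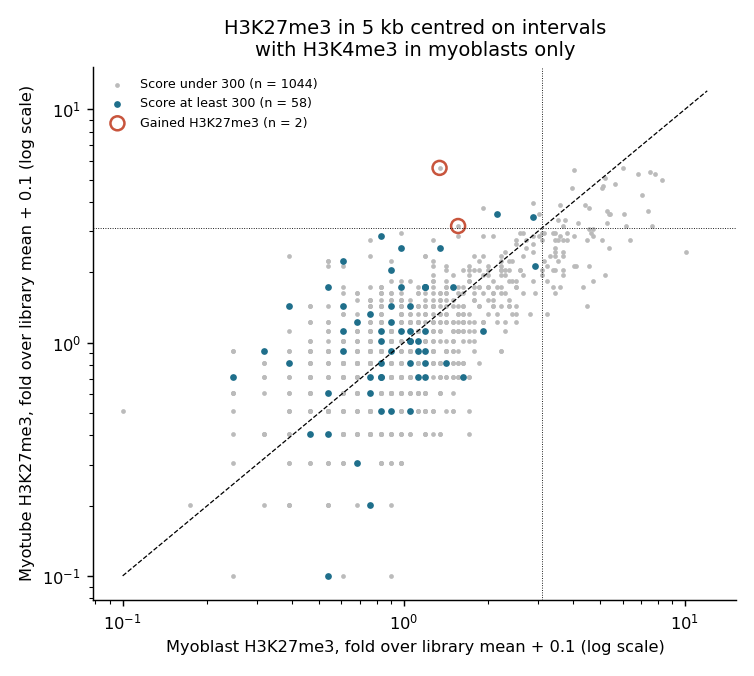
H3K27me3 in 5 kb centred on each of the 1102 myoblast-only regions, as fold over the library mean plus 0.1 on log scales, myoblasts on the x axis and myotubes on the y axis. Blue points are the 58 regions scored 300 or more, red circles the 2 that met the definition of a gain, the dashed line equal fold and the dotted lines 3-fold. Of the 71 points right of the vertical dotted line, 68 have a ratio under 1, and no blue point is among them.

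The 10 promoter-proximal regions with the most myoblast H3K4me3 were followed through every mark. H3K4me2 was lower by at least 2-fold in all 10, with intervals below 1, from 437 reads to 29 at Aqp1 (ratio 0.0599, 0.0396 to 0.0873) to 150 and 52 at Gsg2 (0.313, 0.224 to 0.432). H3K27ac was also lower in all 10 by at least 2-fold, from 94 to 9 reads at Syt13 (0.0377, 0.0167 to 0.0746) to 15 and 11 at Gsg2 (0.288, 0.120 to 0.672). Lower H3K4me3 thus went with lower H3K4me2 and H3K27ac at every promoter of this set. H3K4me1 was lower by at least 2-fold at 5 of the 10, and at Dlx2 its 90 and 70 reads gave an interval that includes 1 (0.803, 0.579 to 1.11). H3K36me3 over the interval was lower with an interval below 1 at 4, such as Syt13 with 41 and 8 reads (0.318, 0.129 to 0.688).

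H3K27me3 in the same 10 intervals had a ratio with an interval above 1 at 5. How many of all intervals meet this criterion was not counted. By the 2-fold call, 6.02% of all intervals with enough reads were higher. Syt13 had 10 reads in myoblasts and 21 in myotubes (2.94, 1.32 to 6.99), Dlx2 12 and 24 (2.80, 1.35 to 6.14), and Col4a1 and Col4a2 19 and 30 (2.21, 1.2 to 4.15). Sema7a had 7 and 17 reads (3.40, 1.34 to 9.69) and Chst1 5 and 12 (3.36, 1.10 to 12.2). The other 5 had similar or lower ratios whose intervals include 1, such as Foxs1 with 10 and 11 reads (1.54, 0.594 to 4.04) and Aqp1 with 13 and 7 (0.754, 0.255 to 2.03). The plot of the 10 promoters shows H3K27me3 as the only mark with intervals above 1.

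**Figure D5:**
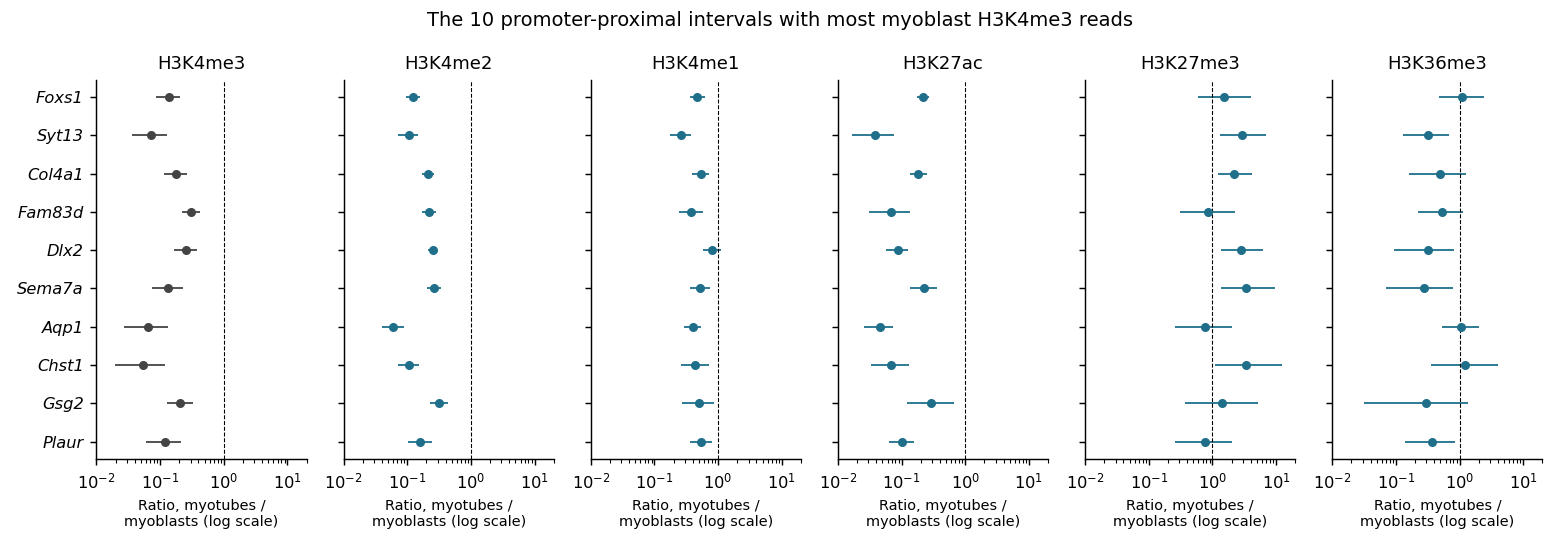
Ratio of myotubes to myoblasts (x axis, log scale) of 6 marks in the 10 promoter-proximal myoblast-only regions with the most myoblast H3K4me3 reads (y axis, by gene). Points are ratios of reads scaled by total reads and bars 95% conditional binomial intervals, which cover counting error only. H3K4me2 and H3K27ac are left of the dashed line at 1 in all 10, and H3K27me3 is right of it, interval included, in 5.

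The 5 strongest distal regions behaved likewise in the active marks. H3K4me2 and H3K27ac were lower by at least 2-fold in all 5, from 151 and 64 H3K4me2 reads near Ccdc28a (0.383, 0.281 to 0.516) to 182 and 43 upstream of Tnc (0.213, 0.149 to 0.299). H3K4me1 inside Agap1 was even, with 43 and 46 reads (1.10, 0.713 to 1.71), so this region kept its enhancer-type mark. Upstream of Fer1l6 H3K36me3 went from 43 reads to 3 (0.114, 0.0226 to 0.355). H3K27me3 upstream of Tnc was 4 reads in myoblasts and 16 in myotubes (5.60, 1.81 to 23), the highest ratio of the 5. With 1 read added, the 5 ratios ran from 0.200 to 4.76, with a median of 1.26. The ratio was at or below 0.5 in 1 region, and only the interval upstream of Tnc excluded 1.

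The regions at the extremes of each mark were named by a fixed rule among those with at least 30 reads of the mark. In H3K4me2 the lowest plain ratios were at the promoter of Ccl2, a monocyte chemokine (46 and 1 reads, 0.0196, 0.000486 to 0.115), inside Fam19a5 (189 and 6 reads, 0.0287) and inside Klhl31 (312 and 16, 0.0463). In H3K27ac they were inside Fam19a5 (126 and 7 reads, 0.0219) and at the promoter of Msc, a basic helix-loop-helix repressor that opposes myogenic factors (86 and 5, 0.0229, 0.00724 to 0.0555), beside a region at -3406 bp from the TSS of Itpk1 (29 and 1). The region inside Fam19a5 was thus among the lowest 3 in both marks. In H3K4me1 the lowest were at the promoters of Sema5a (33 and 2 reads), Ccl2 (43 and 3) and Gm9936 (42 and 3).

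At the upper end stood regions with more of another mark in myotubes. A region 5603 bp from Hoxc11 went from 15 to 52 H3K4me1 reads (3.58, 1.98 to 6.85), and the promoter of Ccnb2, the gene of cyclin B2, from 11 to 24 (2.25, 1.06 to 5.10). H3K27ac was highest relative to myoblasts near Eif4ebp1 (1 and 40 reads), inside Dnm3 (1 and 38) and at Tmem173 (2 and 41). H3K4me2 was highest in 3 distal regions near Myst4 (4 and 31 reads), D18Ertd653e (10 and 38) and Dab2 (8 and 27), each more than 70 kb from the gene and scored under 60. The 3 regions with the highest H3K36me3 ratio were as follows. Klhl31, a muscle-enriched kelch protein, had 7 and 36 reads (8.39, 3.68 to 22.3) and Obsl1, a relative of obscurin, 8 and 39 (7.95, 3.66 to 19.7), and a region upstream of Lrrc10, a cardiac gene, had 8 and 27. H3K4me2 in the intervals at Klhl31 and Obsl1 was 312 and 16 reads and 159 and 21 reads, lower where H3K36me3 was higher. The lowest H3K36me3 was at Ly6a, the gene of the stem cell antigen Sca-1, with 49 reads in myoblasts and 1 in myotubes (0.0333, 0.000826 to 0.194), where H3K4me1 was even (50 and 53).

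A protein-coding gene was counted as having a myoblast-only region if 1 lay within 1 kb of a TSS. That held for 455 of 21275 genes on chromosomes 1 to 19 (2.14%), and 57 of them also had a shared interval, at the same or another TSS. A shared interval was found at 10145 genes (47.7%). The base includes 10732 genes with neither kind of interval, and the lists differ in this. Neither kind was found at 49 of 85 developmental transcription factors and at 0 of 51 cell cycle and replication genes. The gene lists below are counted against these shares with no test, and their content was chosen with earlier results of these data known.

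Among 35 extracellular matrix genes 7 (20%) had a myoblast-only region and 19 (54.3%) a shared one. Besides Col4a1 and Col4a2, which share an interval, these were Col6a3, a chain of collagen VI (56 H3K4me3 reads in myoblasts and 5 in myotubes), Col8a1 with a pair of intervals (14 and 5, 41 and 13), the crosslinking enzyme Loxl2 (23 and 5), the proteoglycan decorin, Dcn (22 and 4), and thrombospondin 2, Thbs2 (25 and 4). At Col6a3 H3K27ac went from 24 reads to 8 (0.131, 0.0509 to 0.302).

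Among 51 growth factors and cytokines 8 (15.7%) had a myoblast-only region. They included Cxcl12, a chemokine (43 and 8 H3K4me3 reads), Fgf10 (30 and 13), the activin subunit Inhbb (22 and 5), Cxcl5 (20 and 3), Hgf, the ligand of the Met receptor (14 and 4), Ccl2 (13 and 3) and Il6 (11 and 9). Il6 stood apart from these, with 16 and 50 H3K27ac reads, a ratio of 1.23 (0.688 to 2.31), and an H3K4me3 ratio of 0.688 whose interval (0.252 to 1.83) includes 1.

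Among 51 cell cycle and replication genes 5 (9.80%) had a myoblast-only region and 46 (90.2%) a shared one. They were the replicative helicase subunits Mcm2 (62 and 14 H3K4me3 reads), Mcm3 (53 and 17) and Mcm6 (66 and 22), the proliferation factor Mybl2 (62 and 9) and Ccnb2 (45 and 8). At Mybl2, whose promoter is printed above, H3K4me2 went from 195 reads to 42 (0.194, 0.136 to 0.272) and H3K27ac from 22 to 10 (0.179, 0.0756 to 0.393). The cell cycle promoters thus mostly kept a myotube peak.

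Among 85 developmental transcription factors 4 (4.71%) had a myoblast-only region: Gata6, Dlx2, Tbx1 (34 and 28 H3K4me3 reads) and Cebpa, a factor of fat and myeloid cells (7 and 4). The last lay 129 bp from a myotube interval, and in 5 kb around it H3K4me3 was 32 and 35 reads. H3K27me3 around Cebpa went from 63 reads to 17 in 5 kb (4.59-fold and 1.73-fold), and around Inhbb from 60 to 13 (4.37-fold and 1.33-fold). No region lay at any of 32 genes of myoblast identity and brakes on differentiation, of which 26 (81.2%) had a shared interval, nor at any of 24 immediate early genes (all 24 with a shared interval) or 50 muscle contractile and calcium genes (15 with a shared interval). Over all protein-coding genes the share with a region was 2.14%, so lists this short can have none without differing from it. Over the 24 regions at listed genes, H3K4me2 was lower by at least 2-fold in 20 and H3K27ac in 19, and the interval of the ratio lay below 1 in 22 and 15. Of all the myoblast-only regions 68.3% and 65.1% were called lower in these marks. H3K4me1 was lower by that much in 4 and H3K27me3 in 5, and the H3K27me3 interval lay below 1 in 3 and above 1 in 2.

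The 4 genes fixed by name were not among those with a myoblast-only region. Twist2, a repressor of myogenesis, had a shared interval with 109 H3K4me3 reads in myoblasts and 41 in myotubes and 102 and 19 H3K27ac reads. Myog (15 and 154 H3K4me3 reads) and Mef2c (41 and 50) had shared intervals as well. The Mef2c promoter counted among the myotube markers was a different window, with 1 read in myoblasts and 88 in myotubes. Igf2 had no interval, with 0 reads in myoblasts, which allows up to 3, and 5 in myotubes at its promoter.

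The sequence of the regions was poorer in CpG than that of shared intervals at nearly equal GC content. The median GC content was 51.4% against 52.3%, and the median CpG observed over expected 0.334 (0.318 to 0.355) against 0.580, with 0.376 in low-scoring shared intervals. Split by position, promoter-proximal regions had 0.561 against 0.600 in shared promoters and distal regions 0.265 against 0.357 in shared distal intervals. The 58 regions scored 300 or more had 0.447 against 0.598 for shared intervals of that score. Much of the overall gap thus followed position, and a smaller gap remained within each position.

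Motifs were counted on both strands in the central 300 bp as letter matches; CAGCTG is its own reverse complement, and no motif contains another. The AP-1 motif TGACTCA was in 11.5% of the regions (127, exact binomial interval 9.70 to 13.6) against 4.59% of all intervals. In distal regions the share was 17.2% (76, 13.8 to 21.1), and in promoter-proximal regions 4.27% (19). Distal shared intervals of low score had it in 12.7% (9.90 to 16.0), an interval that overlaps that of the distal regions. In the 76 distal regions with the motif H3K27ac went from 17.0-fold to 7.77-fold, with a median ratio of 0.393 (0.295 to 0.516), and in the 365 without it from 16.4-fold to 5.27-fold, with a median ratio of 0.393 (0.393 to 0.443). A region with equal read counts in both libraries has exactly this ratio, so the medians cannot separate the 2 sets. The E-box CAGCTG, which MyoD can bind, was in 19.1% against 15.7% of all intervals, and in 19.3% of distal regions against 24.6% of low-scoring distal shared intervals. The TEAD motif GGAATG was in 16.6% against 12.7% of all intervals. The ETS motif CCGGAAG was in 3.45% against 8.71% and the Sp/Klf motif GCCCCGCCC in 3.27% against 6.74%, both being motifs of CpG-rich promoters. Low-scoring shared intervals had the TEAD motif in 16.5%, the Sp/Klf motif in 4.03% and the ETS motif in 47 of 1118. In all 3 motifs the exact binomial interval of the regions overlapped that of the low-scoring shared intervals. Long intervals give no advantage here, since every window has the same length.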

How the data were processed

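C2C12 myoblasts and myotubes were profiled for 6 histone marks with 1 library each, grouped by the labels. The authors aligned 34 bp reads to mm9 and deposited uniquely aligned reads, used here as counts of 1 per read, and MACS peak lists with a score per interval. How MACS was set is not stated in any source used here. Reads were extended to 150 bp and the fragment midpoints counted in intervals, in 5 kb windows or in 100 bp bins on chromosomes 1 to 19 and X. Fold is the count over the library mean per base. Medians and calls of ratios add 1 read to each count, and ratios printed for named regions are plain. A call needs a 2-fold ratio and at least 10 reads. Intervals (95%) are exact Poisson for counts, conditional binomial for ratios, exact binomial for shares and order statistics for medians. TSSs came from GENCODE M1, and sequences from the mm9 genome. Depth was 1858771 to 7033100 reads per library, and 0.417% to 3.14% of reads shared their position and strand with another.

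Named regions were the 10 promoter-proximal and 5 distal regions with the most myoblast H3K4me3 reads, the 3 highest and 3 lowest in each other mark among those with 30 reads, those gaining or already holding H3K27me3 (the 8 and 5 highest), those at listed genes, Igf2, Twist2, Myog and Mef2c, and the 3 nearest to each side of the overlap rule. The members and lists were chosen with earlier results of these data known. Scripts were tested on simulated data. Alternatives varied the overlap, score limit, scaling, added reads, window, duplicates, depth and promoter distance. The values of 1 listed gene are not reported here. Repeat content was not analysed, and no sequence from chromosome 18 is printed. The software was matplotlib 3.10.9, scipy 1.17.1, Python 3.11.15, pandas 2.3.3 and numpy 2.4.6.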

Additional observations from a re-analysis of the deposited data

How the results depend on the processing

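Of 134 alternatives on 21 results, 94 left a median within its 95% interval, or a count or share within 1.5 times, 38 went beyond that (some by little) and 2 turned the direction. A score of at least 100 left 323 regions, with median ratios of 0.344 in H3K4me3, 0.321 in H3K4me2 and 0.275 in H3K27ac, and 0.311% and 0.719% called higher in the last 2 marks. With the median shared interval set to 1, the median ratios were 0.462 (H3K4me3), 0.605 (H3K4me2), 0.598 (H3K4me1), 0.664 (H3K27ac) and 1.14 (H3K36me3, reversed), the shares called lower 37.2% (H3K4me2) and 41.8% (H3K27ac), and the shares called higher 4.62%, 8% and 15.6% (H3K4me2, H3K27ac, H3K36me3). With 5 reads added, which weighs most where counts are low, the medians were 0.521, 0.430, 0.620, 1.2 and 1.22 (H3K4me3, H3K4me2, H3K4me1, H3K27me3 and, reversed, H3K36me3), the shares higher 0.831%, 1.06% and 0.848% (H3K4me2, H3K4me1, H3K27ac), and the shares lower 5.49% and 7.53% (H3K27me3, H3K36me3). In 1 kb windows the medians were 0.404 (H3K4me3) and 0.581 (H3K4me1), and H3K27me3 was lower in 30.4% and higher in 5.60%. A minimum of 30 reads gave 0.839%, 0.533% and 16.7% higher (H3K4me2, H3K4me1, H3K27me3). Thinning the deeper library gave a median of 0.444 in H3K27ac and 12.4% higher in H3K36me3, and 1 read per position and strand a median of 0.931 in H3K27me3. Gains of H3K27me3 numbered 5 in the interval itself and 17 at 2-fold in myotubes. Exchanging the deposited myoblast lists changed the overlap to 3.27% for H3K27me3 and 62.3% for H3K27ac. Apart from what the alternatives' own construction shows, the cause was not tested.

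Depth limits the H3K27me3 and H3K36me3 values most, with a median of 2.00 to 4 reads per region. No paired analysis was possible because each group has 1 library.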

Other observations

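On chromosome X, outside the rule, 31 of 340 myoblast H3K4me3 intervals overlapped no myotube interval. Their median H3K4me3 reads were 18.0 in myoblasts and 8 in myotubes, and their median ratios 0.421 in H3K4me3, 0.492 in H3K4me2, 0.885 in H3K4me1, 0.333 in H3K27ac, 1.12 in H3K27me3 and 1.63 in H3K36me3. H3K4me2 and H3K27ac were thus lower there too.

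Gene bodies gave a view of the genes whose promoter lost its peak, added after the data were seen. Among 341 genes with a myoblast-only region and no shared interval, median H3K36me3 over the body beyond 2 kb from the TSS was 1.51-fold in myoblasts and 1.28-fold in myotubes, with a median ratio of 0.883 (0.819 to 0.958), 62 of 338 (18.3%) called lower and 18 (5.33%) higher. For the 161 of them with a region scored 100 or more the median ratio was 0.769 and 45 (28.0%) were lower. In 8879 genes with a shared interval it was 1.01, and 6.20% were lower. The H3K36me3 reads of Syt13 went from 956 to 100 (ratio 0.172, 0.137 to 0.210, 1 read added), those of Col6a3 from 1146 to 197 (0.282), of Plaur from 274 to 23 (0.142), of Hgf from 393 to 64 (0.269) and of Sema7a from 334 to 51 (0.253). Ccnb2 was even, with 296 and 171 reads (0.944, 0.776 to 1.14). Other named genes had a higher ratio: Inhbb with 16 and 31 reads (3.07, 1.68 to 6.19), Tbx1 with 27 and 41 (2.45, 1.49 to 4.19), Prkcz with 173 and 192 (1.81, 1.47 to 2.24) and Ptpru with 84 and 83 (1.61, 1.18 to 2.21).

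H3K27me3 over the same bodies was higher in 15 genes (4.45%) and lower in 1, against 19.2% higher among genes with a shared interval, whose median ratio was 1.45. At Syt13 it went from 62 reads to 142 (3.18, 2.36 to 4.39) and at Atoh8 from 87 to 202 (3.23, 2.52 to 4.23), while H3K36me3 over Atoh8 went from 262 to 71 (0.446). The highest H3K27me3 ratio among the named genes was that of Ccnb2, with 9 and 28 reads (4.06, 2.00 to 10.5) and even H3K36me3. Gata6 was lower, with 446 and 203 reads (0.639, 0.537 to 0.754).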
